A study of Saccharomyces cerevisiae with 15 samples.

Results

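The 42 nuclear genes of oxidative phosphorylation in budding yeast (Saccharomyces cerevisiae) described here encode the subunits of complexes II, III and IV and of ATP synthase, both cytochrome c isoforms and the NADH dehydrogenases Nde1, Nde2 and Ndi1. They were chosen by their systematic identifiers under a rule that used no measured value, although earlier results of these data were known. All 42 have a row among the 7127 genes of the count table. RNA was sequenced from 15 libraries of W303 strains, 3 in each of 5 groups: PSD1 pdr3Δ, PSD1, MTSMge1 pdr3Δ, MTSMge1 and MTSMss116. In the PSD1 groups the mitochondrial phosphatidylserine decarboxylase Psd1 was overexpressed, and in the MTSMge1 groups the presequence of the matrix protein Mge1 (residues 1 to 44) fused to mCherry. In MTSMss116 cells it was the presequence of the RNA helicase Mss116 (residues 1 to 53) fused to mCherry, the study's control for the Mge1 presequence. All constructs were driven by a galactose-inducible promoter, and every group was given 1% galactose for 4 h in medium with 2% raffinose. In the pdr3Δ groups PDR3, which encodes a transcription factor of the pleiotropic drug response, was replaced by HIS3, whereas the other 3 groups carried PDR3.

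Several features limit these groups as models. The sample labels give a rich raffinose medium and an empty 2-micron plasmid for every group, while the methods of the study describe synthetic medium. Its strain list places the constructs on 2-micron plasmids in every group except PSD1 with PDR3, although its methods state that PSD1 was overexpressed from a 2-micron plasmid. Each group was 1 strain, and nothing states that its 3 libraries came from separate transformants, so the p-values measure the spread between libraries, which may be technical. The labels of the MTSMss116 samples name a separate, additional count table, so a difference of batch and a difference from MTSMss116 cannot be told apart. The study's control for Psd1 in its other assays was an empty vector, and no group here was without an overexpressed construct. A lower level in PSD1 than in MTSMss116 cells therefore cannot be told apart from a higher level in MTSMss116 cells.

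Oxidative phosphorylation passes electrons from NADH and succinate along carriers in the mitochondrial inner membrane to oxygen and uses the proton gradient so formed to make ATP. Budding yeast lacks a proton-pumping complex I and uses single-protein NADH dehydrogenases instead, Ndi1 facing the matrix and Nde1 and Nde2 facing the intermembrane space. Succinate enters through complex II, complex III (the cytochrome bc1 complex) passes electrons to cytochrome c, and complex IV (cytochrome c oxidase) passes them to oxygen. Most subunits of these complexes are encoded in the nucleus and imported, many of them with a cleaved presequence. In yeast their genes are known targets of the Hap2/3/4/5 activator, which binds CCAAT elements and is restrained by glucose.

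The libraries held 9128344 to 15953662 counts (median 12181171). The constructs matched their labels: PDR3 had 0 to 1 count in the 6 pdr3Δ libraries and 921 to 4469 counts in the other 9, PSD1 reached 15301 to 17564 CPM (counts scaled to library size) where it was overexpressed and 155 to 262 CPM elsewhere, MGE1 reached 7091 to 8268 CPM against 247 to 333 CPM, and MSS116 reached 6470.0 to 7684 CPM against 487 to 656 CPM. Since the presequence constructs contain the start of MGE1 or MSS116, their reads add to the counts of those genes. The libraries were made from polyadenylated RNA, and the 7 mitochondrially encoded subunits examined held 0 to 15 counts in any library, so only nuclear genes are described. CPM values are shares of a library's RNA and carry no information on the amount of RNA per cell.

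The promoters of the nuclear genes share a feature that the choice of genes did not use. In the 300 bases before the start codon (RefSeq, assembly R64, all 42 genes matched), the pentamer CCAAT was present on either strand in 36 of the 42 genes, or 85.7%, against 2509 of 6001 protein-coding genes, or 41.8%. The longer form ACCAATNA, in which N is any base and which contains the pentamer, was present in 17 of the 42 genes (40.5%), against 5.22% of all promoters. All 15 ATP synthase genes and all 4 complex II genes held CCAAT, as did 8 of 9 complex IV and 7 of 9 complex III genes, whereas COX4, CYT1, COR1, CYC1, CYC7 and NDE2 held none in this window. Of the 2 forms of the Pdr1/Pdr3 site searched on both strands, TCCGCGGA was present in 1 gene, TIM11 (0.2% of all promoters), and TCCGTGGA in 0 of 42 (0.45% of all promoters). The core of the site of the hypoxic repressor Rox1, ATTGTTC, was present in 8 genes, or 19%, against 7.43% of all promoters. A match of letters is a description of the window, not evidence of binding.

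Promoters of 6 genes on which the results turn are shown from 300 bases before the start codon, 5′ to 3′ on the coding strand, with every CCAAT, or ATTGG where it lies on the other strand, in capitals. COX5A and COX5B are alternative isoforms of a complex IV subunit, NDE1 and NDE2 are paralogous NADH dehydrogenases, ATP2 encodes the catalytic β subunit of ATP synthase and was among the genes with the smallest adjusted p, and TIM11 holds the Pdr1/Pdr3 site within the 9 lower-case bases between its last pair of CCAAT elements, which lie on opposite strands. The coordinates are chrXIV:531425-531724 (plus strand) for COX5A, chrIX:154922-155221 (plus) for COX5B, chrXIII:556476-556775 (minus) for NDE1, chrIV:302911-303210 (plus) for NDE2, chrX:647307-647606 (plus) for ATP2 and chrIV:1112294-1112593 (minus) for TIM11.
COX5A: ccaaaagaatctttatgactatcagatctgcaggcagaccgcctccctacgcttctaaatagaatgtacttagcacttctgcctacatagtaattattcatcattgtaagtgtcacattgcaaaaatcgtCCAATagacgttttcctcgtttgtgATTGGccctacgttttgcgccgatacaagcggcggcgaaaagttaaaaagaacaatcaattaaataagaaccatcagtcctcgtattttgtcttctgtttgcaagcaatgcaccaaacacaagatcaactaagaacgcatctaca
COX5B: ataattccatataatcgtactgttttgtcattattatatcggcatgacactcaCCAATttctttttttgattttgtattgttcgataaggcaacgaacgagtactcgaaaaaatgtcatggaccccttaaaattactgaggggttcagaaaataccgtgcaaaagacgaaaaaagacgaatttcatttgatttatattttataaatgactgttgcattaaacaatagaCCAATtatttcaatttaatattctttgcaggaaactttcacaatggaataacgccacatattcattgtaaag
NDE1: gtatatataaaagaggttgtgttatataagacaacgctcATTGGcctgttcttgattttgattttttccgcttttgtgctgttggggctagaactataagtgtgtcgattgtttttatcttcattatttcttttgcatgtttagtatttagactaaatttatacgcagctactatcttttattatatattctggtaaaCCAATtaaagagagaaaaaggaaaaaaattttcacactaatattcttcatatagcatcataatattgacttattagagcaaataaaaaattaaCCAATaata
NDE2: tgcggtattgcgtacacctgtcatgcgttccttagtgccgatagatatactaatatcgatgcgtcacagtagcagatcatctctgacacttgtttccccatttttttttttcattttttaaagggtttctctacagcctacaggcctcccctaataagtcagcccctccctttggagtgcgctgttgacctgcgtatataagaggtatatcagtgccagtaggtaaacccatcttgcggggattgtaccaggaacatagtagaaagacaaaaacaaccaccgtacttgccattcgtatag
ATP2: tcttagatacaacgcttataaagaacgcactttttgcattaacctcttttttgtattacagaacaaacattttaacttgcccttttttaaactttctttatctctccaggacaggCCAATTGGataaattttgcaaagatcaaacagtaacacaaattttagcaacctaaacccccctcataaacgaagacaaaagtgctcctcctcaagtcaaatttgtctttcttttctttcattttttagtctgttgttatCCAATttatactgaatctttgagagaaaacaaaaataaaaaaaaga
TIM11: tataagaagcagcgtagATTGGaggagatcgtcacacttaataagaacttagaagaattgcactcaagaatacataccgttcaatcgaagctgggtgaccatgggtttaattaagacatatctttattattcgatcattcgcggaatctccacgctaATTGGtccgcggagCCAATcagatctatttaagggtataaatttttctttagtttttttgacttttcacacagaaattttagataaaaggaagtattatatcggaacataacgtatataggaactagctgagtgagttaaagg
COX5A holds CCAAT once on each strand and COX5B holds it at 2 places on the coding strand. NDE1 holds 3 matches and NDE2 none. In ATP2 a match on each strand overlaps in the run CCAATTGG.

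The transcripts of the 42 genes together made up a smaller share of the RNA in cells overexpressing Psd1 than in any other group with the same PDR3 allele. Their share of all counts was 1.60%, 1.66% and 1.58% in PSD1 pdr3Δ libraries, 1.85%, 1.78% and 1.64% in PSD1 libraries, 2.00%, 2.11% and 1.91% in MTSMge1 pdr3Δ libraries, 2.27%, 2.24% and 2.04% in MTSMge1 libraries and 2.64%, 2.87% and 2.64% in MTSMss116 libraries. The means were 1.61% ± 0.044 for PSD1 pdr3Δ, 1.76% ± 0.109 for PSD1, 2.01% ± 0.105 for MTSMge1 pdr3Δ, 2.18% ± 0.121 for MTSMge1 and 2.72% ± 0.131 for MTSMss116 (SD, n = 3 each). In this order PSD1 pdr3Δ overlapped with PSD1 and MTSMge1 pdr3Δ overlapped with MTSMge1, while the other neighbours did not overlap. The order of the group means was the same for complexes II, III and IV, ATP synthase and the NADH dehydrogenases taken singly. ATP synthase, the largest contributor, held 0.587% ± 0.00655 of counts in PSD1 pdr3Δ, 0.630% ± 0.0283 in PSD1, 0.707% ± 0.0299 in MTSMge1 pdr3Δ, 0.793% ± 0.0425 in MTSMge1 and 1.00% ± 0.0373 in MTSMss116 (SD, n = 3 each). Cytochrome c departed from this order, with 0.135% ± 0.00574 in MTSMge1 pdr3Δ and 0.118% ± 0.00146 in MTSMge1 (SD, n = 3 each).

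**Figure D1:**
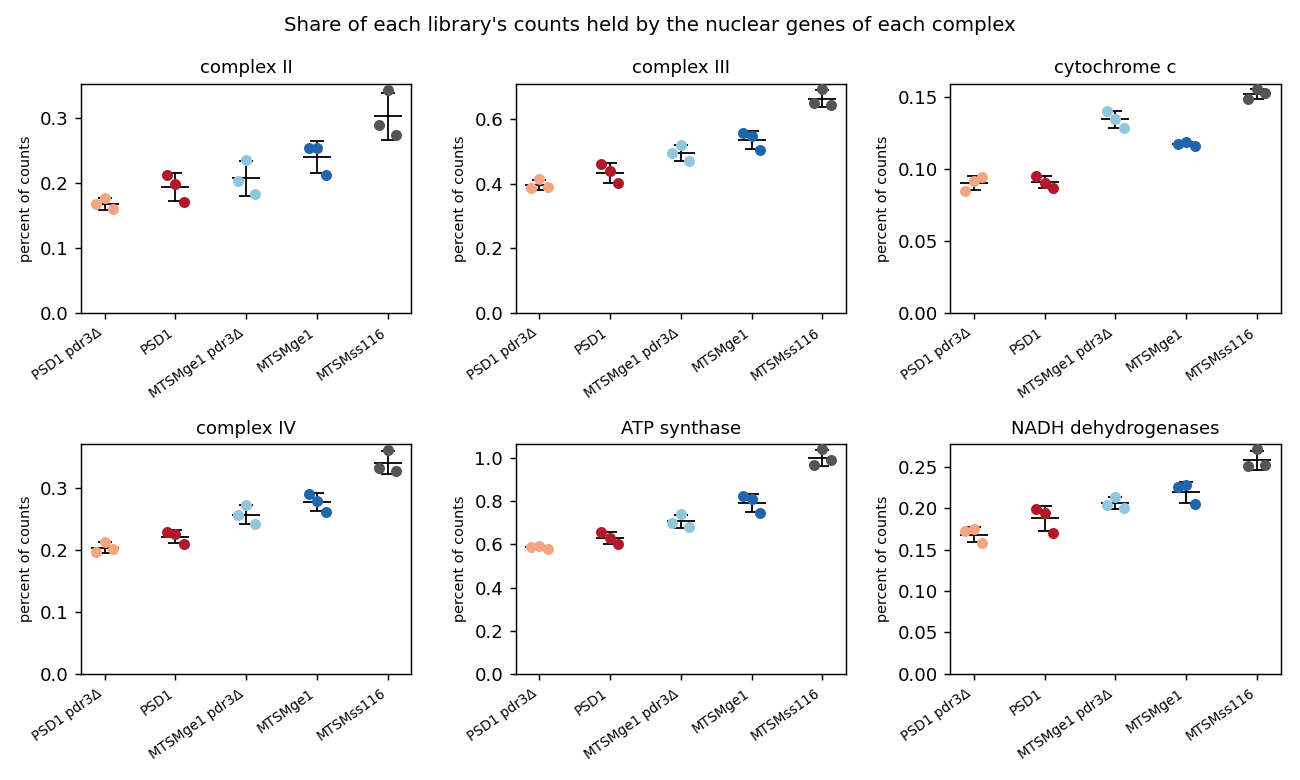
Percent of each library's counts held by the nuclear genes of each complex (y axis) in the 5 groups (x axis). Points are single libraries, horizontal marks the mean and bars the SD of 3 libraries. In every panel the MTSMss116 libraries lie above all PSD1 and PSD1 pdr3Δ libraries, and in the cytochrome c panel the MTSMge1 pdr3Δ libraries lie above the MTSMge1 libraries.

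A test of any difference among the 5 groups (edgeR, adjusted p at most 0.05, hereafter called) was passed by 39 of the 42 genes, against 15.1% of all genes tested. COX5B, CYC7 and NDE2 were the exceptions, with adjusted p of 0.14, 0.88 and 0.20. The same 39 genes had their lowest mean CPM among the 3 groups with PDR3 in PSD1 cells and their highest in MTSMss116 cells, and in 32 of them no library overlapped with a library of another of these groups. Neither pattern was counted over all genes. COX5B, CYC7 and NDE2 had the opposite order of means.

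**Figure D2:**
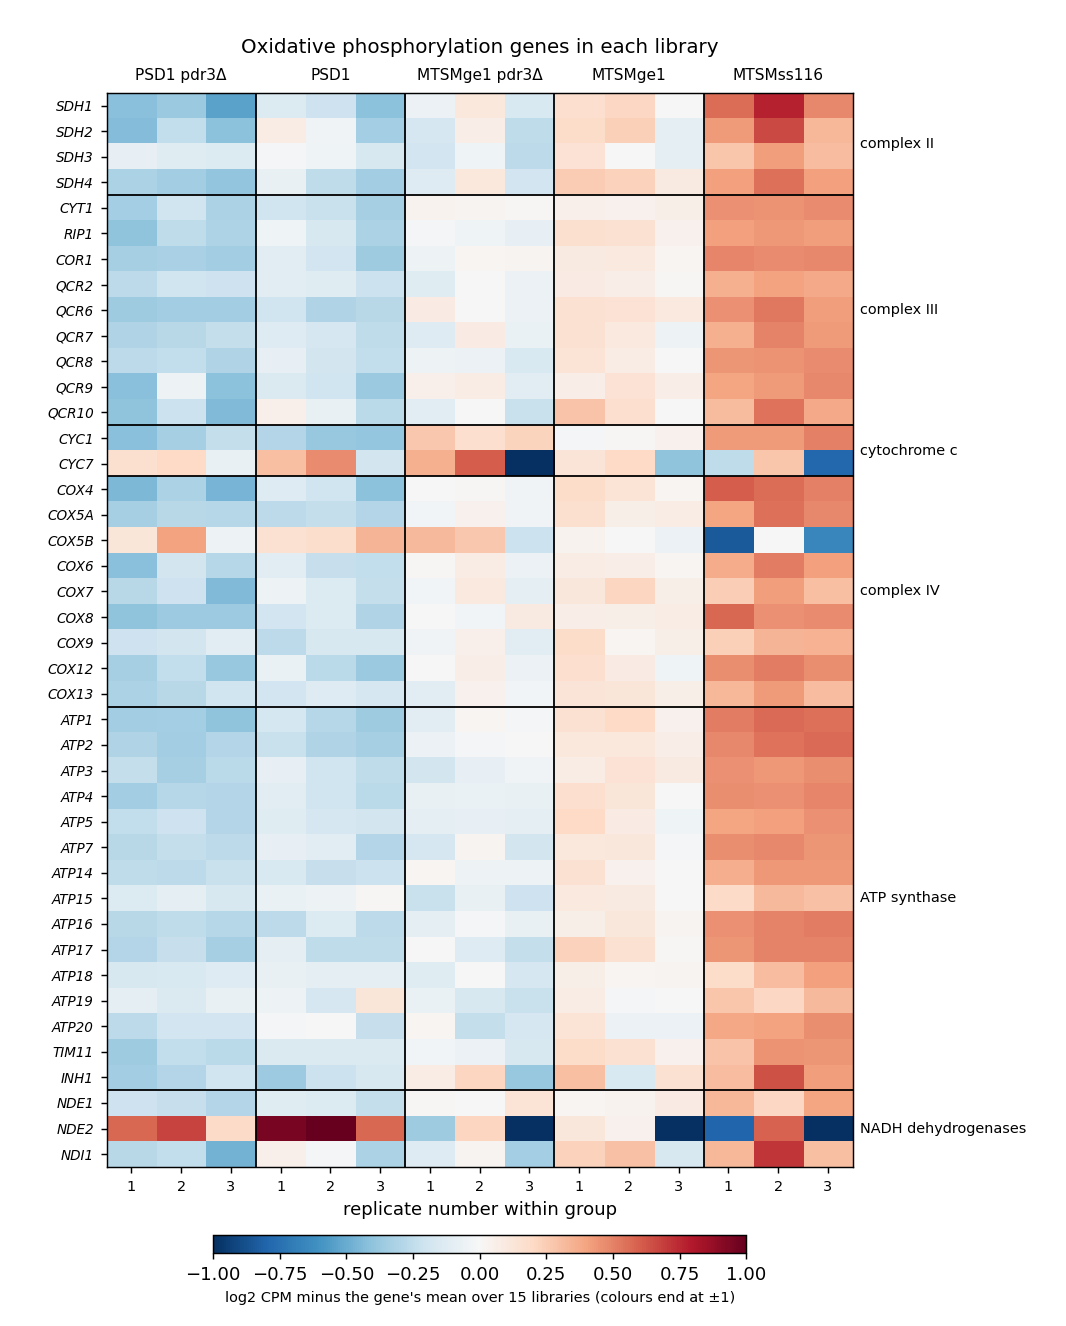
Each row is a gene, each column a library, and the colour gives log2 CPM minus the gene's mean over the 15 libraries. The MTSMss116 columns are red and the PSD1 and PSD1 pdr3Δ columns blue for most genes of each complex, whereas COX5B, CYC7 and NDE2 are not, and NDE2 is lowest in replicate 3 of MTSMss116, MTSMge1 pdr3Δ and MTSMge1.

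Overexpression of Psd1 is known to impair mitochondrial protein import, and PSD1 cells were first set against MTSMss116 cells. Transcripts for subunits of every respiratory complex fell in PSD1 cells. Of the 42 genes, 32 were called lower and 0 higher, by at most 0.84 on the log2 scale, against 1.91% of all genes tested called lower and 4.25% called higher. The median log2 fold change of the 42 genes was -0.60, against 0.01 over all genes tested, and 39 of the 42 (92.9%) had every PSD1 library below every MTSMss116 library, against 13.8% of all genes tested. Of the 42 genes 0 were called higher by edgeR and 1, COX5B, by DESeq2, and 2 of the 3 genes with a positive fold change, COX5B and NDE2, had an unadjusted p under 0.05.

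Complex II oxidizes succinate and ties the citric acid cycle to respiration. SDH1 (YKL148C), its flavoprotein subunit, had 719, 685 and 596 CPM in PSD1 libraries, against 1167, 1346 and 1104 CPM in MTSMss116 libraries. This was the largest decrease among the 42 genes, with a log2 fold change of -0.84 ± 0.13 (SE, adjusted p = 0.014). SDH4 (YDR178W), a membrane anchor, fell by 0.66 on the log2 scale. SDH2 (YLL041C), the iron-sulfur subunit, and the anchor SDH3 (YKL141W) had log2 fold changes of -0.55 and -0.39 and were not called, with adjusted p of 0.079 and 0.062.

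In complex III, 8 of 9 genes fell. The acidic hinge protein gene QCR6 (YFR033C) had 638, 597 and 605 CPM in PSD1 libraries, against 1007, 1059.9 and 981 CPM in MTSMss116 libraries (log2 fold change -0.71 ± 0.09, SE, adjusted p = 0.0098). The genes of both redox subunits in the nucleus, CYT1 (YOR065W, cytochrome c1) and RIP1 (YEL024W, the Rieske iron-sulfur protein), fell by 0.69 and 0.58 on the log2 scale. The core protein genes COR1 (YBL045C) and QCR2 (YPR191W) fell by 0.68 and 0.51, and the small subunit genes QCR7 (YDR529C), QCR8 (YJL166W) and QCR9 (YGR183C) by 0.59 to 0.65. QCR10 (YHR001W-A), whose product is dispensable for the enzyme in yeast, had a log2 fold change of -0.49 and an adjusted p of 0.056.

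Cytochrome c, the mobile carrier between complexes III and IV, is encoded by CYC1 (YJR048W, iso-1) and CYC7 (YEL039C, iso-2, favoured at low oxygen). CYC1 had 912, 857 and 855 CPM in PSD1 libraries, against 1499, 1500.0 and 1582 CPM in MTSMss116 libraries, and fell by 0.79 on the log2 scale (SE 0.10, adjusted p = 0.0077). CYC7 had 33.0, 37.1 and 23.6 CPM in PSD1 libraries, against 22.5, 32.5 and 15.5 CPM in MTSMss116 libraries. The CYC7 values of the groups overlap, and its log2 fold change was 0.43 ± 0.29 (SE, adjusted p = 0.42).

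In complex IV, 8 of 9 genes fell, all but the isoform COX5B. COX5A (YNL052W), the isoform of subunit Va used with oxygen, had 464, 472 and 454 CPM in PSD1 libraries, against 731, 815 and 776 CPM in MTSMss116 libraries (log2 fold change -0.72 ± 0.09, SE, adjusted p = 0.0096). COX4 (YGL187C), a zinc-binding subunit needed for assembly, had 345, 327 and 283 CPM in PSD1 libraries, against 573, 554 and 533 CPM in MTSMss116 libraries (log2 fold change -0.78 ± 0.11, SE, adjusted p = 0.011). The genes of the other structural subunits, COX6 (YHR051W), COX7 (YMR256C), COX8 (YLR395C), COX9 (YDL067C), COX12 (YLR038C) and COX13 (YGL191W), fell by 0.45 (COX7) to 0.70 (COX8 and COX12). COX5B (YIL111W), the isoform of COX5A favoured at low oxygen, went the other way without passing the test, with 21.1, 21.4 and 24.0 CPM in PSD1 libraries, against 10.6, 19.0 and 12.1 CPM in MTSMss116 libraries. Every PSD1 library of COX5B lay above every MTSMss116 library, as in 980 of all 6168 genes tested. The log2 fold change of COX5B was 0.69 ± 0.22 (SE, adjusted p = 0.12).

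In ATP synthase, 12 of 15 genes fell. ATP1 (YBL099W) and ATP2 (YJR121W) encode the α and β subunits of the catalytic head. ATP2 had 2003, 1901 and 1864 CPM in PSD1 libraries, against 3265, 3419.9 and 3463 CPM in MTSMss116 libraries (log2 fold change -0.80 ± 0.10, SE, adjusted p = 0.0077). ATP1 had 1001, 930.3 and 886 CPM in PSD1 libraries, against 1616, 1675 and 1663 CPM in MTSMss116 libraries (log2 fold change -0.80 ± 0.10, SE, adjusted p = 0.008). The stalk genes ATP3 (YBR039W, γ) and ATP16 (YDL004W, δ) fell by 0.61 and 0.69 on the log2 scale, and ATP16 had 293, 321 and 294 CPM in PSD1 libraries, against 485, 497 and 503 CPM in MTSMss116 libraries. ATP15 (YPL271W), for the ε subunit of the same stalk, had a log2 fold change of -0.29 and was not called (adjusted p = 0.083). The stator and membrane subunit genes ATP4 (YPL078C), ATP5 (YDR298C), ATP7 (YKL016C), ATP14 (YLR295C) and ATP17 (YDR377W) fell by 0.56 (ATP5) to 0.66 (ATP17). ATP17 had 204, 182 and 183 CPM in PSD1 libraries, against 295, 306 and 307 CPM in MTSMss116 libraries. Of the genes whose products join or stabilize ATP synthase dimers, ATP20 (YPR020W, subunit g) and TIM11 (YDR322C-A, subunit e) fell by 0.49 and 0.52, whereas ATP18 (YML081C-A) and ATP19 (YOL077W-A) had log2 fold changes of -0.38 and -0.28 and were not called. INH1 (YDL181W), for the inhibitor of ATP hydrolysis, fell by 0.69.

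Of the NADH dehydrogenases, NDE1 (YMR145C) fell by 0.46 on the log2 scale, with 1300.0, 1285 and 1201 CPM in PSD1 libraries, against 1779.9, 1635 and 1859.8 CPM in MTSMss116 libraries. NDI1 (YML120C) had a log2 fold change of -0.53 and an adjusted p of 0.10. NDE2 (YDL085W) had 31.0, 33.7 and 23.9 CPM in PSD1 libraries, against 9.22, 24.1 and 4.81 CPM in MTSMss116 libraries. The NDE2 groups overlap only through MTSMss116 replicate 2, and the log2 fold change of 1.23 ± 0.52 (SE, adjusted p = 0.20) was not called. Without that library it was 2.09 and was called (edgeR, adjusted p = 0.0041), in a fit that called 1503 of all genes tested. With the replicate block it was 1.46 (edgeR, adjusted p = 0.039). Same-numbered libraries of these 2 groups had correlations of 0.091, 0.462 and 0.590, the first of them below the 0.1 set for pairing. Without MTSMss116 replicate 3 the log2 fold change of NDE2 was 0.82, the lowest value with 1 library left out. MTSMss116 replicate 2 was the highest library of its group for 23 of the 42 genes, which was not counted over all genes.

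The call of the decrease depended on single libraries more than its size did. With 1 library left out, 0 genes were called lower without PSD1 replicate 2, 11 without PSD1 replicate 1, 10 without PSD1 replicate 3, 9 without MTSMss116 replicate 1 and 26 to 36 without either of the other MTSMss116 libraries, while the median log2 fold change stayed between -0.67 and -0.58. Over all genes tested, calls in either direction ranged from 50 without PSD1 replicate 2 to 1503 without MTSMss116 replicate 2.

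**Figure D3:**
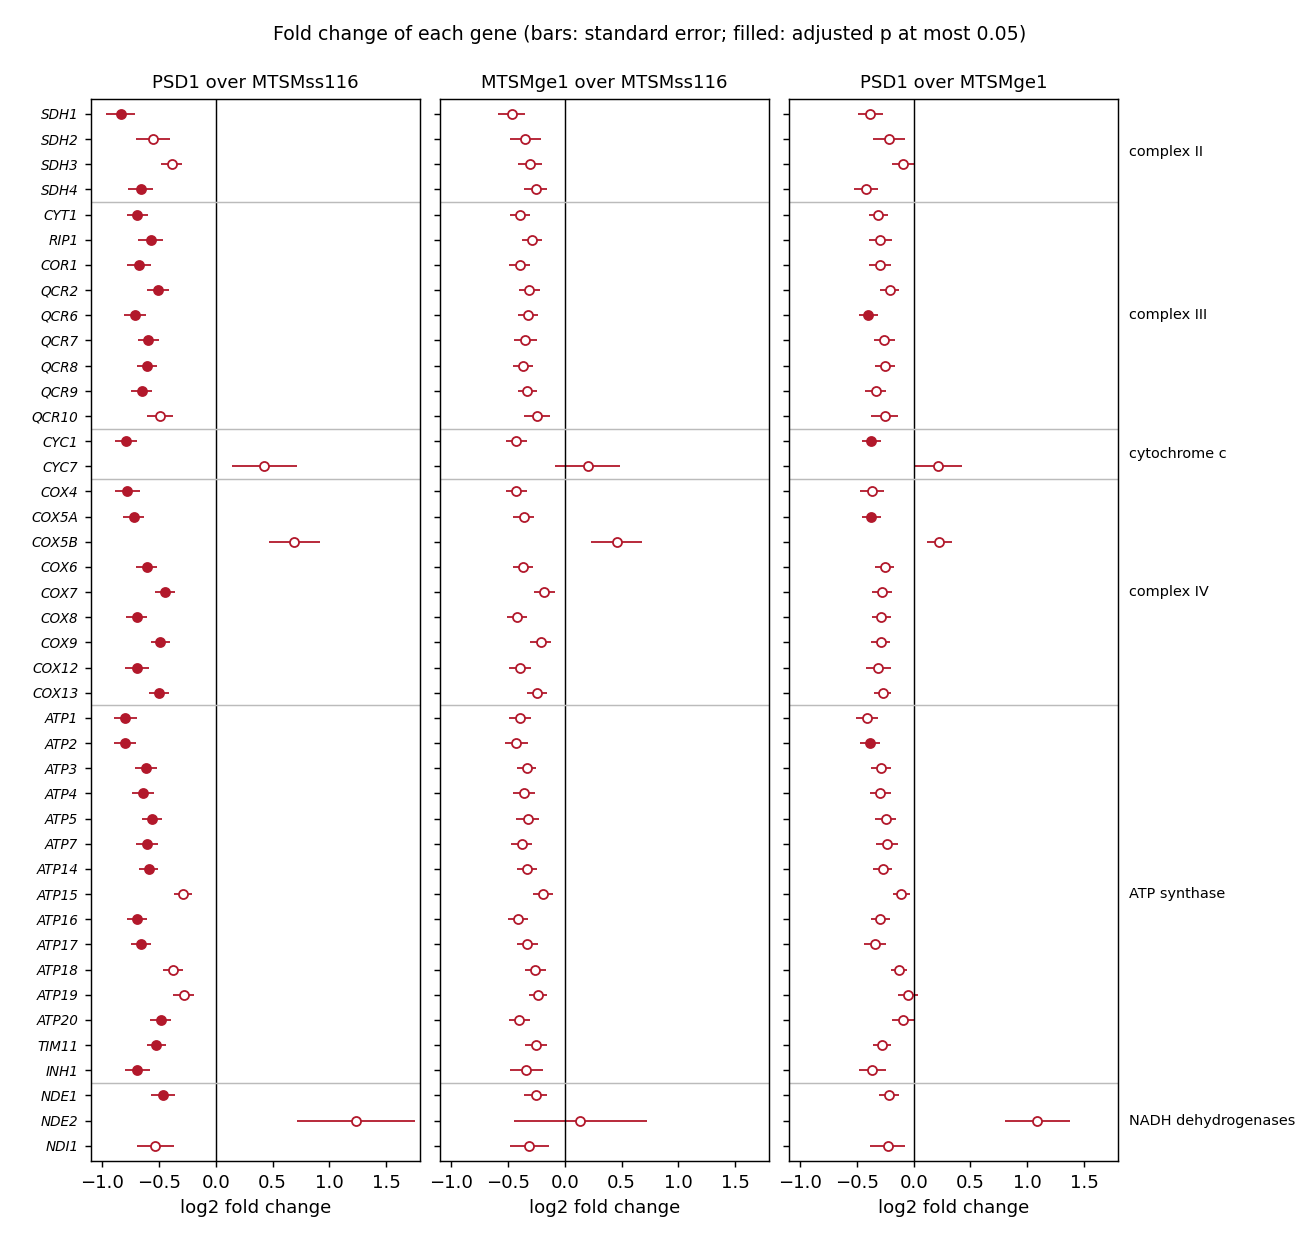
Log2 fold change (x axis) of each gene (y axis, grouped by complex) in 3 comparisons, with bars for the standard error and filled points for an adjusted p of at most 0.05. For PSD1 over MTSMss116, 32 points are filled and all of them lie left of 0, for MTSMge1 over MTSMss116 none is filled although 39 lie left of 0, and for PSD1 over MTSMge1 4 are filled.

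The Mge1 presequence, compared with the Mss116 presequence, was accompanied by lower levels of most of the same transcripts, without a call by edgeR. This comparison shares the MTSMss116 libraries with the one above. Of the 42 genes, 0 were called by edgeR in MTSMge1 over MTSMss116, against 0.0323% of all genes called lower and 0.614% called higher. DESeq2 called 23 of the 42 genes lower and 0 higher, with 118 genes called in the whole table, and a single edgeR fit of all 5 groups called 22 lower and 0 higher, with 97 genes called in the whole table. In the edgeR fit of these groups alone 33 of the 42 genes had an unadjusted p under 0.05, against 434 of all 6184 genes tested, 39 had a negative log2 fold change, and the median was -0.33, against 0.00 over all genes tested. In 39 genes (92.9%) every MTSMge1 library lay below every MTSMss116 library, against 6.37% of all genes tested. The log2 fold changes of these 39 genes ranged between -0.47 for SDH1 and -0.18 for COX7. COX5A had 622, 581 and 588 CPM in MTSMge1 libraries and a log2 fold change of -0.36 ± 0.09 (SE, adjusted p = 0.35), and CYC1 had 1104, 1129 and 1149 CPM and -0.43 ± 0.09 (SE, adjusted p = 0.22). The libraries of COX5B, CYC7 and NDE2 overlapped between the groups, with log2 fold changes of 0.46, 0.20 and 0.14.

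PSD1 and MTSMge1 cells were compared directly, in the presence and in the absence of PDR3. With PDR3, 4 genes fell in PSD1 cells (1.46% of all genes called lower, 3.43% higher) and 0 rose, with a median log2 fold change of -0.28 over the 42 genes. They belong to 4 different parts of the chain, QCR6 (log2 fold change -0.40 ± 0.08, SE, adjusted p = 0.036), COX5A (log2 fold change -0.37 ± 0.08, SE, adjusted p = 0.044), ATP2 (log2 fold change -0.38 ± 0.08, SE, adjusted p = 0.046) and CYC1 (log2 fold change -0.37 ± 0.08, SE, adjusted p = 0.047). QCR6 had 638, 597 and 605 CPM in PSD1 libraries, against 818, 811 and 786 CPM in MTSMge1 libraries, and ATP2 had 2003, 1901 and 1864 CPM, against 2512, 2525 and 2452 CPM. In 32 genes (76.2%) every PSD1 library lay below every MTSMge1 library, against 12.6% of all genes tested. In 2 genes, COX5B and NDE2, every PSD1 library lay above, against 881 of all 6157 genes tested. With the replicate number as a block, which paired libraries here, 34 genes were called lower (8.88% of all genes) and NDE2 alone was called higher (9.84% of all genes), with a log2 fold change of 1.14. NDE2 had 31.0, 33.7 and 23.9 CPM in PSD1 libraries, against 17.4, 16.5 and 7.87 CPM in MTSMge1 libraries. DESeq2 called 21 lower and 1 higher, with 634 genes called in the whole table, and without the block 0 genes were called lower when any library other than MTSMge1 replicate 3 was left out and 8 without that one. Over all genes, calls in either direction ranged from 41 without PSD1 replicate 1 to 426 without MTSMge1 replicate 3.

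Without PDR3, 3 genes fell in PSD1 pdr3Δ relative to MTSMge1 pdr3Δ cells (1.74% of all genes called lower, 2.19% higher) and 0 rose, with a median log2 fold change of -0.24. CYC1 had 839, 887 and 949.7 CPM in PSD1 pdr3Δ libraries, against 1344, 1259 and 1308 CPM in MTSMge1 pdr3Δ libraries (log2 fold change -0.55 ± 0.09, SE, adjusted p = 0.029). COX8 had 206, 211 and 211 CPM in PSD1 pdr3Δ libraries, against 273, 267 and 290.2 CPM in MTSMge1 pdr3Δ libraries (log2 fold change -0.40 ± 0.08, SE, adjusted p = 0.039), and COX4 had 276, 303 and 273 CPM, against 376, 379 and 367 CPM (log2 fold change -0.40 ± 0.08, SE, adjusted p = 0.045). In these 3 genes the groups did not overlap, and in 27 of the 42 genes (64.3%) every PSD1 pdr3Δ library was the lower, against 13.1% of all genes tested. With the replicate block 19 genes were called lower (6.67% of all genes) and 1, NDE2, higher (8.73% of all genes) with a log2 fold change of 0.87. DESeq2 called 18 lower, with 573 genes called in the whole table. Leaving out PSD1 pdr3Δ replicate 1, 2 or 3 or MTSMge1 pdr3Δ replicate 1 left 0 of the 42 genes called, leaving out MTSMge1 pdr3Δ replicate 2 left 1 and leaving out MTSMge1 pdr3Δ replicate 3 gave 7. Over all genes, calls in either direction ranged from 3 without MTSMge1 pdr3Δ replicate 1 to 326 without MTSMge1 pdr3Δ replicate 3.

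Deletion of PDR3 went with small differences that were negative for most of the 42 genes, none of them called without the block. Under MTSMge1, 0 of the 42 genes were called by edgeR in pdr3Δ relative to PDR3 cells (0.663% of all genes called lower, 0.0647% higher), 5 had an unadjusted p under 0.05, against 323 of all 6184 genes tested, and DESeq2 called 0. The median log2 fold change was -0.13, and 38 genes had a negative one. In 19 genes (45.2%) every MTSMge1 pdr3Δ library lay below every MTSMge1 library, against 6.05% of all genes tested, 11 of them in ATP synthase. With the replicate block ATP17 and NDI1 were called lower (log2 fold changes -0.25 and -0.27, 3.54% of all genes) and CYC1 higher (0.21, 2.44% of all genes). Calls were thus about as frequent among the 42 genes as over all genes. CYC1 had 1344, 1259 and 1308 CPM in MTSMge1 pdr3Δ libraries, against 1104, 1129 and 1149 CPM in MTSMge1 libraries. It was the 1 of the 42 genes with every pdr3Δ library higher, against 292 of all 6184 genes tested. ATP17 had 219, 199 and 185 CPM in MTSMge1 pdr3Δ libraries, against 255, 242 and 219.7 CPM in MTSMge1 libraries, and NDI1 had 567, 630.5 and 489 CPM, against 726, 758 and 555 CPM.

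Under PSD1, 0 of the 42 genes were called by edgeR in pdr3Δ relative to PDR3 cells (0.602% of all genes called lower, 0.114% higher), 3 had an unadjusted p under 0.05, against 811 of all 6150 genes tested, and DESeq2 called 0. The median log2 fold change was -0.10, and in 8 genes (19%) every PSD1 pdr3Δ library lay below every PSD1 library, against 9.28% of all genes tested. With the replicate block NDE2 was called lower (log2 fold change -0.39, 4.98% of all genes called lower) and 0 genes higher (4.83%). Calls were thus no more frequent among the 42 genes than over all genes. NDE2 had 23.8, 25.7 and 18.3 CPM in PSD1 pdr3Δ libraries, against 31.0, 33.7 and 23.9 CPM in PSD1 libraries, and each of the 3 pairs of the same replicate number was lower in pdr3Δ. TIM11, with the Pdr1/Pdr3 site shown above, had 166, 178 and 176 CPM in PSD1 pdr3Δ libraries, against 192, 191 and 192 CPM in PSD1 libraries, and 208, 203 and 189.6 CPM in MTSMge1 pdr3Δ libraries, against 241, 236 and 218 CPM in MTSMge1 libraries. All TIM11 libraries of pdr3Δ were the lower within each construct, with log2 fold changes of -0.15 and -0.22 that were not called (adjusted p = 0.38 and 0.86). The same held for COX13, QCR6, ATP4, ATP5, ATP15 and ATP18, whose promoters hold neither form of the Pdr1/Pdr3 site. This pattern was not counted over all genes, and a role of the site was not tested. The difference between the effects of the deletion under Psd1 and under the Mge1 presequence was called in 0 of the 42 genes (0.0160% of all genes tested), with 0 at an unadjusted p under 0.05 and 0 by DESeq2. With the replicate block 0 of the 42 were called as well (0.128% of all genes).

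The isoform pairs set a major and a minor transcript side by side. COX5B made up 4.57% ± 0.397 of the counts of COX5A and COX5B in PSD1 cells, 3.07% ± 0.0893 in MTSMge1 cells and 1.74% ± 0.460 in MTSMss116 cells (SD, n = 3 each), and no library overlapped between these groups. In the pdr3Δ groups the share was 4.49% ± 0.658 under PSD1 and 3.64% ± 0.639 under MTSMge1, and the libraries overlapped. CYC7 made up 3.45% ± 0.731 of both cytochrome c genes in PSD1 cells, 2.33% ± 0.515 in MTSMge1 cells and 1.52% ± 0.577 in MTSMss116 cells, with overlap between MTSMge1 and MTSMss116 and with the lowest PSD1 library (2.69%) just above the highest MTSMge1 library (2.66%). NDE2 made up 2.28% ± 0.307 of NDE1 and NDE2 in PSD1 cells, 0.949% ± 0.371 in MTSMge1 cells and 0.743% ± 0.630 in MTSMss116 cells, so that PSD1 stood apart from both others, which overlapped. The minor isoforms were far below the major ones also per kilobase of coding length: in PSD1 cells COX5B averaged 48.6 CPM per kilobase against 1003 for COX5A, CYC7 averaged 91.4 against 2650 for CYC1, the highest of the 42 genes, and NDE2 averaged 18.0, the lowest, against 749.8 for NDE1. The coding sequences share no stretch of 59 bases, the read length, with any other place in the genome, so that reads of the isoforms can be told apart.

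**Figure D4:**
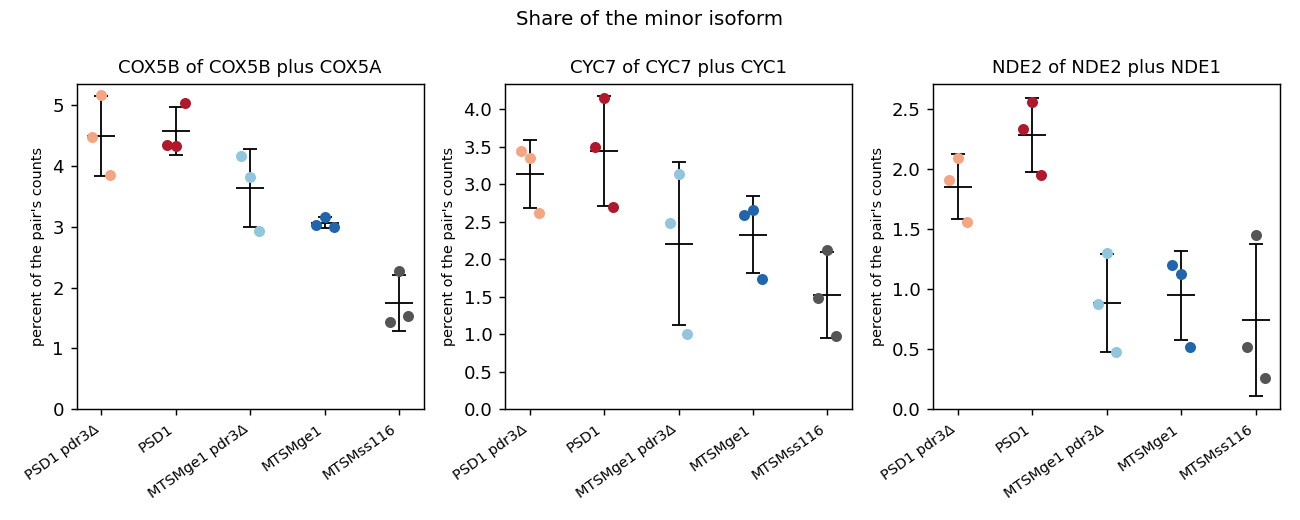
Percent of the counts of each isoform pair that belong to the minor isoform (y axis) in the 5 groups (x axis). Points are libraries, horizontal marks the mean and bars the SD of 3 libraries. The COX5B share of every PSD1 library (4.33% to 5.03%) exceeds that of every MTSMge1 library (3.00% to 3.17%) and MTSMss116 library (1.43% to 2.27%).

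Levels of some of the 42 genes also moved with the replicate number, a smaller share than over all genes tested. With the group as a covariate, 7 of the 42 genes differed among replicate numbers, against 36.3% of all genes tested: SDH1, SDH2, COX7, QCR10, CYC7, NDE2 and NDI1. For 5 genes, COX4, SDH1, CYC7, NDE2 and NDI1, replicate 3 was the lowest library in each of the 5 groups, a pattern not counted over all genes. The part of these differences in the results above was not tested beyond the fits with the replicate block.

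Genes for the assembly of the same complexes did not follow the subunits. In PSD1 relative to MTSMss116 cells, 15 of 31 genes for complex IV assembly and for translation of its mitochondrially encoded subunits rose and 1 fell, against the background of 4.25% higher and 1.91% lower. The copper delivery protein gene SCO1 had 137, 134 and 123 CPM in PSD1 libraries, against 83.7, 84.6 and 79.7 CPM in MTSMss116 libraries (log2 fold change 0.68 ± 0.08, SE, adjusted p = 0.0064), and PET117 had 83.8, 87.9 and 99.5 CPM, against 52.3, 45.8 and 55.1 CPM (log2 fold change 0.84 ± 0.11, SE, adjusted p = 0.0096). COX14, PET191 and COA1 rose by 0.56 to 0.62 on the log2 scale, while COX19, for a protein of the intermembrane space, fell by 0.62. Of 12 genes for complex III and cytochrome c assembly 5 rose and 0 fell, led by CBP4 (222, 201 and 205 CPM in PSD1 libraries, against 123, 123 and 115 CPM in MTSMss116 libraries, log2 fold change 0.81 ± 0.08, SE, adjusted p = 0.0045). The genes of both cytochrome heme lyases, CYC3 and CYT2, which attach heme to cytochromes c and c1, rose by 0.57 and 0.59, while their substrates' genes CYC1 and CYT1 fell. In complex II assembly 2 of 4 genes rose, SDH5, which attaches the flavin to Sdh1, by 0.96 and SDH7 by 0.94. In ATP synthase assembly 2 of 10 rose, ATP11 (0.42) and FMC1 (0.59), and ATP10 fell by 0.75. In PSD1 relative to MTSMge1 cells 14, 4, 2 and 2 genes of these lists rose and 0 fell, against 3.43% of all genes higher and 1.46% lower, and in MTSMge1 relative to MTSMss116 cells 0 were called (unadjusted p under 0.05 in 4, 1, 0 and 1 genes, and 0 by DESeq2). Without PDR3, 4, 1, 2 and 0 genes rose in PSD1 pdr3Δ relative to MTSMge1 pdr3Δ cells, against 2.19% of all genes higher and 1.74% lower, and ATP10 fell by 0.61. With the replicate block complex IV assembly had 15 genes higher and 1 lower there, against 8.73% of all genes higher and 6.67% lower. These calls depended on single libraries as those of the subunits did: for PSD1 over MTSMss116 the number of complex IV assembly genes called higher was 0 without PSD1 replicate 2, 1 without MTSMss116 replicate 1, 3 without PSD1 replicate 1, 4 without PSD1 replicate 3, 11 without MTSMss116 replicate 3 and 19 without MTSMss116 replicate 2, while the median stayed between 0.46 and 0.53. In complex II assembly 2 to 4 genes were called higher with any 1 of these libraries left out, in complex III and cytochrome c assembly 1 (without PSD1 replicate 1, 2 or 3 or MTSMss116 replicate 1) to 5, and in ATP synthase assembly 0 (without the same 4 libraries) to 2. Complex IV assembly had 1 gene called lower without MTSMss116 replicate 2 and 0 with any other library left out. ATP synthase assembly had 0 genes called lower without the same 4 libraries. For PSD1 over MTSMge1 the complex IV assembly count was 1 to 12 with 1 library left out (1 without PSD1 replicate 1). It was 0 to 6 in complex III and cytochrome c assembly (0 without PSD1 replicate 1), 1 to 2 in complex II assembly (1 without PSD1 replicate 1 or 2 or MTSMge1 replicate 2) and 0 to 2 in ATP synthase assembly (0 without PSD1 replicate 1 or 2 or MTSMge1 replicate 2). Without PDR3 the counts were 0 to 4, 0 to 1 and 0 to 2 in the first 3 of these lists, each 0 without MTSMge1 pdr3Δ replicate 1 or without any 1 of the PSD1 pdr3Δ libraries, and ATP synthase assembly had 0 genes lower without the same libraries. Calls over all genes varied as well with 1 library left out. They ranged from 50 to 1503 for PSD1 over MTSMss116, 41 to 426 for PSD1 over MTSMge1 and 3 to 326 without PDR3.

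**Figure D5:**
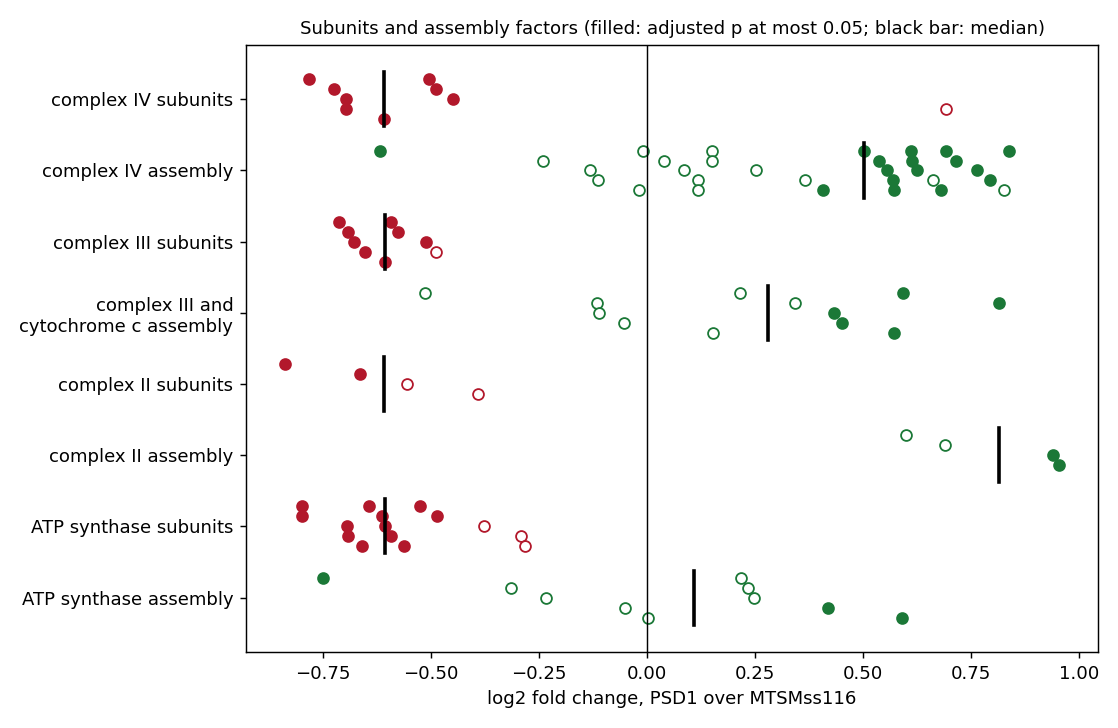
Log2 fold change in PSD1 over MTSMss116 (x axis) of subunit genes (red) and assembly factor genes (green) of each complex (y axis). Each point is a gene, filled where the adjusted p is at most 0.05, and the black bars are medians. The medians of the subunits lie at about -0.61 for all 4 complexes, and those of the assembly lists at 0.50 for complex IV, 0.28 for complex III and cytochrome c, 0.82 for complex II and 0.11 for ATP synthase.

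Among neighbouring functions in PSD1 relative to MTSMss116 cells, the main ADP/ATP carrier gene PET9 and the phosphate carrier gene MIR1 fell, by 0.77 and 0.58 on the log2 scale (2 of 4 carrier genes, against 1.91% of all genes called lower). SDH9, a paralog of SDH1 named in the files by YJL045W, rose (log2 fold change 1.53 ± 0.34, SE, adjusted p = 0.047), with 24.0, 28.5 and 17.8 CPM in PSD1 libraries, against 7.12, 12.4 and 5.03 CPM in MTSMss116 libraries, and was the 1 called of 3 paralog genes (4.25% of all genes called higher). SDH9 was called with MTSMss116 replicate 2 left out and with no other library left out, and neither carrier was called lower without MTSMss116 replicate 1 or any of the PSD1 libraries. Of 8 genes of heme synthesis 0 were called by edgeR or DESeq2 (1 at an unadjusted p under 0.05). Of 11 genes of coenzyme Q synthesis 0 were called by edgeR, 6 had an unadjusted p under 0.05 and DESeq2 called 6 higher. Of 5 low-oxygen genes, 3 were tested and 0 called by edgeR or DESeq2 (0 at an unadjusted p under 0.05).

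The transcripts of most known regulators, HAP4 and HAP1 among them, were not called in PSD1 relative to MTSMss116 cells. HAP4, whose product is the limiting activating subunit of the Hap2/3/4/5 complex, had 425, 410.1 and 274 CPM in PSD1 libraries, against 433, 467 and 439 CPM in MTSMss116 libraries (log2 fold change -0.26 ± 0.18, SE, adjusted p = 0.43), and 413, 444 and 326 CPM in MTSMge1 libraries. The HAP4 libraries of PSD1 all lay below those of MTSMss116, and HAP4 was not called in any of the 6 comparisons. HAP1, a heme-responsive activator of CYC1, had 129.6, 148 and 133 CPM in PSD1 libraries, against 123, 173 and 131 CPM in MTSMss116 libraries (log2 fold change -0.04 ± 0.14, SE, adjusted p = 0.90), and was not called in any comparison either. HAP5, for a DNA-binding subunit of the same complex as Hap4, rose by 0.56 in PSD1 relative to MTSMss116 cells. Of the 13 regulators 2, HAP5 and RTG3, were called in that comparison, both higher, against 4.25% of all genes called higher and 1.91% lower. The count was 0 with any library other than MTSMss116 replicate 2 left out. RTG3, for a transcription factor of the retrograde pathway, fell on deletion of PDR3: its level was 62.6, 59.7 and 62.7 CPM in MTSMge1 pdr3Δ libraries, against 102, 112 and 107 CPM in MTSMge1 libraries (log2 fold change -0.80 ± 0.08, SE, adjusted p = 0.0029), and 55.3, 55.5 and 63.7 CPM in PSD1 pdr3Δ libraries, against 83.3, 83.0 and 85.01 CPM in PSD1 libraries (log2 fold change -0.53 ± 0.08, SE, adjusted p = 0.017). Against MTSMss116 libraries (53.3, 68.0 and 61.3 CPM) RTG3 rose by 0.82 in MTSMge1 and by 0.48 in PSD1 cells, and in PSD1 relative to MTSMge1 cells it fell by 0.36. With 1 library left out, RTG3 stayed called in each case on deletion of PDR3 under MTSMge1, but under PSD1 only without replicate 3 of either group, in both comparisons with MTSMss116 only without MTSMss116 replicate 2, and in PSD1 over MTSMge1 only without MTSMge1 replicate 3.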

How the data were processed

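Polyadenylated RNA was sequenced from the 15 libraries with paired 59-base reads after a stranded library preparation. Alignment was done by the authors with DRAGEN against genome R64, and featureCounts gave the raw counts of 7127 genes that they deposited. The strand setting and annotation used in counting are not given in the sources used here. Columns were assigned to samples by name, and 0 per-sample columns were left unused.

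Counts were tested with the quasi-likelihood test of edgeR 4.0.16 in R 4.3.3, with a fit for the groups compared, TMM normalization, filterByExpr and Benjamini-Hochberg adjustment over all genes tested. A gene was called at an adjusted p of at most 0.05. DESeq2 1.42.0, other size factors, no filter, all 5 groups in one fit, a replicate block and each library left out in turn were the alternatives. CPM used TMM-scaled library sizes, whereas shares of counts used library totals. The scripts were tested on simulated data.

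The members and the other gene lists were chosen with earlier results of these data known. Values by library were given for up to 6 called members with the smallest adjusted p in a comparison, the member with the largest change in each complex if called, and the isoform pairs. From each other list up to 5 called genes with the smallest adjusted p could be named, and HAP1 and HAP4 always. COX19, ATP17 and NDI1 in the comparison of pdr3Δ with PDR3 cells, and TIM11 were named after their values were seen.

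Same-numbered libraries deviated together (every correlation above 0.1) in the comparisons of pdr3Δ with PDR3 cells under MTSMge1 (0.216, 0.389 and 0.603) and under PSD1 (0.145, 0.400 and 0.504) and of PSD1 with MTSMge1 cells with PDR3 (0.372, 0.107 and 0.494) and without it (0.106, 0.484 and 0.427), so blocked values are given there. The pairing comes from the replicate numbers in the sample titles. Replicates of a group differed by more than sampling noise (chi-square per degree of freedom 8.89 to 128), so none was treated as a duplicate.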

Additional observations from a re-analysis of the deposited data

How the results depend on the processing

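Signs of the medians over the 42 genes held in all comparisons of pairs of groups under every alternative, whereas counts of calls did not. No alternative moved the median of all genes by more than 0.05 on the log2 scale, and size factors by RLE changed no call count by over 1.5 times. In MTSMge1 over MTSMss116 DESeq2 called 23 genes lower and a single fit of all 5 groups 22, against 0. In PSD1 over MTSMss116 each of DESeq2, the single fit and the replicate block called 1 gene higher. In PSD1 over MTSMge1 DESeq2 called 21 lower and 1 higher, the single fit 21 lower, and 2 were lower without the filter. In pdr3Δ cells DESeq2 called 18 lower and the single fit 16. Among replicate numbers 11 genes were called with total library size. Without the genes changed by construction the 42 genes held 1.66% of counts in PSD1 pdr3Δ. The cause of these shifts was not tested.

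The replicate block called 34 genes lower and 1 higher in PSD1 over MTSMge1, 19 and 1 in pdr3Δ cells, 2 and 1 for pdr3Δ under MTSMge1, and 1 and 0 for pdr3Δ under PSD1. In the comparisons with MTSMss116 the libraries of replicate 1 fell below the 0.1 set for pairing, while those of replicates 2 and 3 did not. The correlations were -0.095, 0.481 and 0.616 for MTSMge1 and 0.091, 0.462 and 0.590 for PSD1. There the block called 0 genes for MTSMge1 and 37 lower for PSD1. It also called 6 coenzyme Q genes higher in PSD1 over MTSMss116, against 0. A single fit of all groups with the block, chosen after seeing the data, called 33 lower in MTSMge1 over MTSMss116, 2 higher in PSD1 over MTSMss116, 31 lower and 1 higher in PSD1 over MTSMge1, and 24 lower and 1 higher in pdr3Δ cells. Calls over all genes were not counted for this fit, so these counts have no background to be set against.

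Leaving out 1 library at a time gave 0 to 36 genes lower and 0 to 2 higher in PSD1 over MTSMss116 (median -0.67 to -0.58), 0 to 8 lower and 0 to 1 higher in PSD1 over MTSMge1 (-0.31 to -0.23), 0 to 7 lower in pdr3Δ cells (-0.27 to -0.19), and 0 in MTSMge1 over MTSMss116 (-0.39 to -0.32) and for pdr3Δ under MTSMge1 (-0.17 to -0.12) and PSD1 (-0.13 to -0.07). In the order of these comparisons, calls over all genes ranged from 50 to 1503, 41 to 426, 3 to 326, 22 to 52, 28 to 54 and 27 to 122. The interaction median ranged between 0.00 and 0.07, and 39 to 41 genes differed among groups, against 690 to 1206 over all genes. For the lists of other genes and RTG3, leaving out libraries was chosen after seeing the data.

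Calls over all genes were 40 for MTSMge1 over MTSMss116 (118 by DESeq2, 97 in the single fit), 380 for PSD1 over MTSMss116 (906, 988, and 867 with the block), 45 for pdr3Δ under MTSMge1 (77 by DESeq2, 370 with the block), 44 for pdr3Δ under PSD1 (124 and 603), 301 for PSD1 over MTSMge1 (634 and 1153), 242 in pdr3Δ cells (573, 463 in the single fit, 949 with the block), 1 for the interaction (12 by DESeq2, 0 with total library size, 8 with the block) and 945 among groups (1563 and 2211).

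Signs turned only for genes that were not called. For pdr3Δ under MTSMge1 NDE1 was -0.0082 with total library size and -0.0013 with the block. CYC1 was -0.0015 for pdr3Δ under PSD1 and COX5B -0.015 for PSD1 over MTSMge1 in pdr3Δ cells with total library size, and CYC7 was 0.060 there with the block. With 1 library left out, MTSMge1 over MTSMss116 ranged between -0.27 and 0.98 for NDE2, -0.039 and 0.50 for CYC7 and -0.22 and 0.043 for HAP1, and HAP1 in PSD1 over MTSMss116 between -0.15 and 0.12. For pdr3Δ under MTSMge1 the ranges were -0.46 to 0.16 for NDE2, -0.17 to 0.47 for CYC7, -0.052 to 0.030 for NDE1 and -0.041 to 0.17 for HAP1. For pdr3Δ under PSD1 they were -0.29 to 0.027 for CYC7, -0.14 to 0.027 for HAP1, -0.19 to 0.039 for COX5B, -0.11 to 0.18 for HAP4 and -0.025 to 0.064 for CYC1. HAP4 in PSD1 over MTSMge1 ranged between -0.21 and 0.080. In pdr3Δ cells the ranges were -0.39 to 0.27 for CYC7, -0.15 to 0.079 for HAP1 and -0.13 to 0.13 for COX5B.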
